A study of Homo sapiens with 21 samples.

Results

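The SLC17 genes encode a family of membrane carriers for organic anions, phosphate, sialic acid and nucleotides, and 6 of them were followed here in HepG2/C3A cells: SLC17A1, SLC17A2, SLC17A3, SLC17A4, SLC17A5 and SLC17A9. They were taken by symbol from the 19683 gene symbols of the count table, which holds 9 SLC17 genes in all. The set was chosen by the levels of SLC17A2, which lay below the monolayer in early spheroids and above it in late ones, so its values are given as a description, with no test. The other members were taken by name. SLC17A1, SLC17A2, SLC17A5 and SLC17A9 passed the filter on low counts and SLC17A3 and SLC17A4 did not; SLC17A1 passed only through its counts on the late days.

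HepG2/C3A is an established hepatoma-derived line with hepatocyte traits, labelled wild type, and the labels name no drug or other agent. The cells had either been aggregated in low-attachment plates into 3D spheroids, held in a rotating bioreactor and collected on Days 3, 7, 10, 14, 21 and 28, or grown as a 2D monolayer, the control. Each of these 7 groups has 3 libraries, 21 in all, measured by TempO-Seq, an assay that ligates pairs of gene-specific detector oligos on RNA and counts them. The labels give the monolayer no day of culture, all groups are 1 line, and the replicates are called biological without saying whether each is a culture of its own. The p-values therefore reflect only how far these libraries spread.

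SLC17A1, SLC17A2, SLC17A3 and SLC17A4 form a compact group of genes on the short arm of chromosome 6 and encode sodium-coupled or voltage-driven carriers that were first described as phosphate transporters and move urate and other organic anions. Hepatocytes and kidney proximal tubule cells are the best known sites of SLC17A1, SLC17A2 and SLC17A3, and variants across the group are associated with serum urate and gout. SLC17A5, also called sialin, exports sialic acid from lysosomes, and SLC17A9, also called the vesicular nucleotide transporter, loads ATP into secretory vesicles. The last pair are therefore relatives by sequence rather than urate carriers. The liver makes urate from purines and passes it to the blood for excretion by kidney and gut.

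In GENCODE 29 on GRCh38, matched by symbol, SLC17A4 (ENSG00000146039.10) lies at chr6:25754699-25781191 on the plus strand. On the minus strand follow SLC17A1 (ENSG00000124568.10) at chr6:25782897-25832059, SLC17A3 (ENSG00000124564.17) at chr6:25833066-25882286 and SLC17A2 (ENSG00000112337.10) at chr6:25912754-25930726. The 4 genes span 176 kb with 0 other protein-coding genes between them. SLC17A5 (ENSG00000119899.12) lies on the long arm of the same chromosome at chr6:73593379-73654155 on the minus strand, and SLC17A9 (ENSG00000101194.17) at chr20:62952647-62969585 on the plus strand. Where each detector oligo lies within its transcript is not stated in the labels or files.

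The 150 bases before the start of each clustered gene are shown because those of SLC17A2, SLC17A1 and SLC17A4 hold an identical run of 12 letters. Whether the run bears on the level of any of them was not tested. The sequences are from RefSeq on GRCh38.p14, read 5′ to 3′ on the strand of the gene: SLC17A2 at chr6:25930692-25930841 on the minus strand, SLC17A1 at chr6:25832053-25832202 on the minus strand, SLC17A4 at chr6:25754549-25754698 on the plus strand and SLC17A3 at chr6:25874244-25874393 on the minus strand. Where the table gives 2 starts, the outermost was used. Capitals mark the shared run.
SLC17A2: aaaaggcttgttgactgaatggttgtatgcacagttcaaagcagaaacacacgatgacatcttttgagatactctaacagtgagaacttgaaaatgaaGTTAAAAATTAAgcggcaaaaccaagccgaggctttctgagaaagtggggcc
SLC17A1: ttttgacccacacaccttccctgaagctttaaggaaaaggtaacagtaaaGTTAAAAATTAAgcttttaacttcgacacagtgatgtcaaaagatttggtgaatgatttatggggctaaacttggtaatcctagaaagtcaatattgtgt
SLC17A4: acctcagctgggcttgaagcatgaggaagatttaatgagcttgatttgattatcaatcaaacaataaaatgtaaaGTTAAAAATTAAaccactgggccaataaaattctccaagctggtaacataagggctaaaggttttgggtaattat
SLC17A3: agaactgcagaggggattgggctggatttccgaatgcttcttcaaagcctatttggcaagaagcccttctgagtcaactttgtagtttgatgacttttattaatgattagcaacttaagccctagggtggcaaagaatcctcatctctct

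The run GTTAAAAATTAA began 52 bases before the start of SLC17A2, 100 before that of SLC17A1 and 75 before that of SLC17A4, each time on the strand of the gene. The 150 bases before the RefSeq start of SLC17A3 lack it. That start lies within the gene as GENCODE 29 places it, so the stretch shown is not the one before the outermost start of SLC17A3, which was not examined. SLC17A4, which holds the run, gave 9 counts over all libraries. SLC17A2 and SLC17A1 shared 16 bases in a row around it, aagttaaaaattaagc, and SLC17A1 and SLC17A4 shared 17, gtaaagttaaaaattaa. The identical run stood on either strand in 9 of 35116 promoter windows of 300 bases, which is 0.0256%, and these windows belong to 8 gene symbols. SLC17A2, SLC17A1 and SLC17A4, from which the run was taken, are among these symbols, so the share is not an independent background. This run was singled out after the sequences had been seen, and a match is a description and not a site. The search covered both strands with no mismatch.

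Totals per library ran between 18760232 and 43443262 counts (median 31997292). A sum of 3 counts, the limit that a count of 0 allows, corresponded to 0.0735 to 0.160 CPM. CPM are counts scaled by the TMM-adjusted library size. They compare libraries for 1 gene and not 1 gene with another, since each gene is read through its own oligos. Intervals and limits on counts cover counting error only. All 8 hepatocyte markers were present in every group, with a summed level of 36700 to 74400 CPM in spheroids and 10500 to 11300 CPM in the monolayer. PTPRC, STAB2, COL1A1 and DCN, which mark leukocytes, sinusoidal endothelium and fibroblasts, were at 0 in all libraries. The endothelial list, through VWF, CDH5 and PECAM1, summed to 0.173 to 1.02 CPM in spheroids and 0 to 0.0651 CPM in the monolayer. The fibroblast list, through LUM and COL3A1, summed to at most 0.196 CPM in any library. The leukocyte list summed to 78.0 to 265 CPM in spheroids and 64.6 to 69.2 CPM in the monolayer, all but 2 counts of it from CD68 and LYZ. The 5 markers of kidney proximal tubule summed to 0.349 to 4.41 CPM in spheroids and 0.424 to 0.483 CPM in the monolayer, mostly as CUBN.

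SLC17A2, a carrier of phosphate and organic anions found mainly in liver and kidney, was lower in early spheroids and higher in late ones than in the monolayer. It stood at 10.5, 10.5 and 8.75 CPM in the 3 Day 3 libraries, 17.6, 21.6 and 19.5 CPM on Day 7, and 14.6, 16.5 and 15.5 CPM on Day 10. On Day 14 the 3 libraries stood at 96.0, 81.8 and 99.9 CPM, on Day 21 at 184.5, 180.2 and 201.1 CPM, and on Day 28 at 409, 318 and 350 CPM. The monolayer libraries had 55.3, 56.5 and 58.8 CPM. All 9 early libraries (Days 3, 7 and 10) lay below the monolayer, all 9 late libraries (Days 14, 21 and 28) lay above it, and no 2 of the 7 groups overlapped. In order of level the groups were Day 3 (9.91 ± 1.01), Day 10 (15.5 ± 0.946), Day 7 (19.6 ± 2.00), 2D (56.9 ± 1.77), Day 14 (92.6 ± 9.53), Day 21 (188.6 ± 11.03) and Day 28 (359 ± 46.0), in CPM as mean ± SD with n = 3. These rest on 973 raw counts over the 3 Day 3 libraries, 27567 over the Day 28 libraries and 5333 over the monolayer libraries, so that depth does not limit them. In bulk RNA, more cells expressing a gene and more RNA per cell cannot be told apart, here and for every member.

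On the log2 scale of the edgeR fit, SLC17A2 differed from the monolayer by -2.52 ± 0.10 on Day 3 (SE), which is 5.72-fold lower, by -1.54 ± 0.09 on Day 7 and by -1.87 ± 0.09 on Day 10. The difference was 0.70 ± 0.09 on Day 14, 1.73 ± 0.09 on Day 21 and 2.66 ± 0.09 on Day 28, which is 6.31-fold higher. These 6 comparisons share the monolayer libraries. From one sampled day to the next the largest step was Day 14 over Day 10, at 2.57 ± 0.10 or 5.94-fold. The steps after it were 1.03 ± 0.09 for Day 21 over Day 14, or 2.04-fold, and 0.93 ± 0.08 for Day 28 over Day 21, or 1.90-fold. Before it the level was higher on Day 7 than on Day 3 by 0.98 ± 0.10 and lower on Day 10 than on Day 7 by -0.33 ± 0.10. Day 28 stood 36.1-fold above Day 3, a log2 difference of 5.17 ± 0.10. As background, 241 of the 12345 genes tested, or 1.95%, were called lower on Day 3 and higher on Day 28 than in the monolayer. The family was chosen by this crossing of SLC17A2, so nothing is read from that share.

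**Figure D1:**
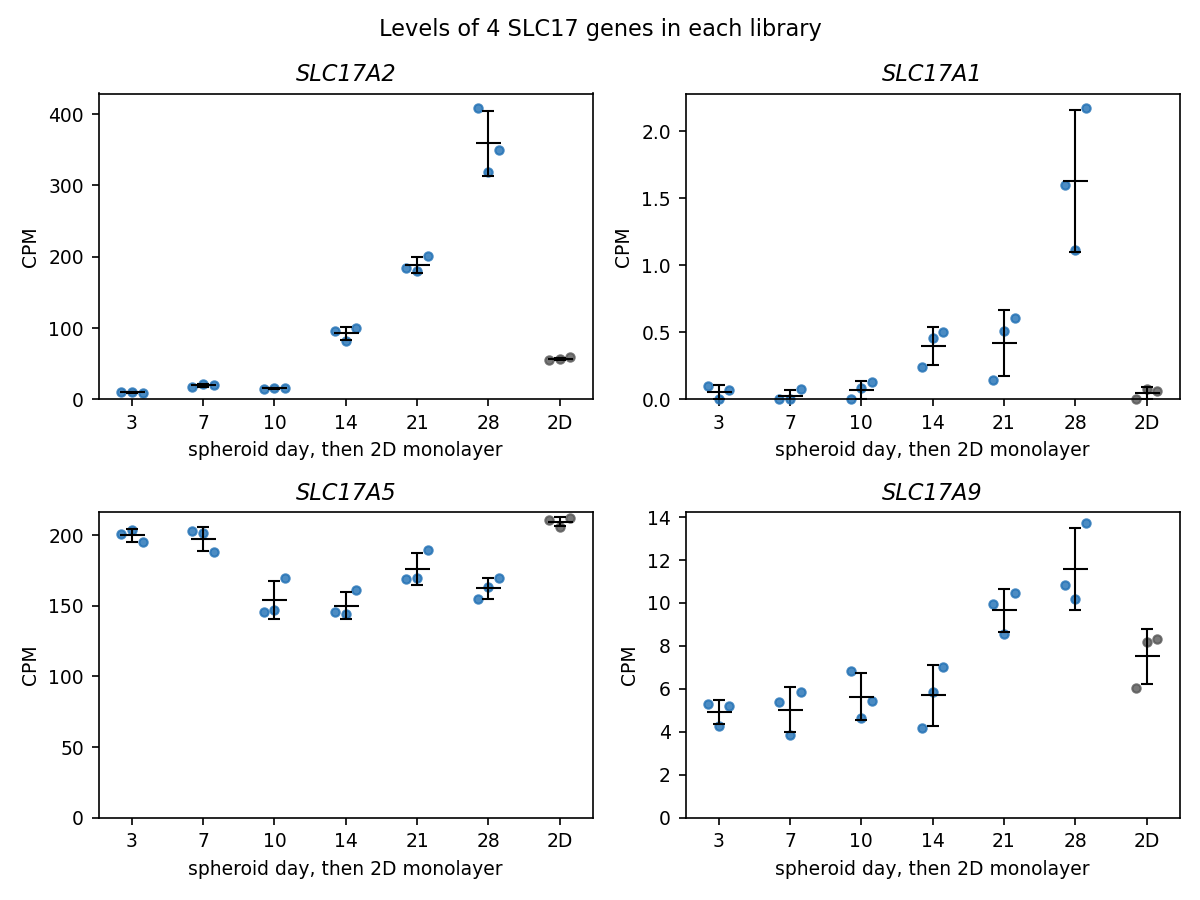
Level of SLC17A2, SLC17A1, SLC17A5 and SLC17A9 in each of 21 libraries, in CPM on a linear axis from 0 with its own scale in each panel, with spheroid days in order and the 2D monolayer (grey) at the right; points are libraries and black marks give the mean ± SD (n = 3). SLC17A2 lies at 8.75 to 21.6 CPM up to Day 10 and at 81.8 to 409 CPM from Day 14, against 55.3 to 58.8 CPM in the monolayer.

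SLC17A1, the neighbouring gene, known as a urate and phosphate carrier of the kidney tubule and also expressed in liver, gave far fewer counts and was also higher on the late days. Its raw counts per library were 4, 0 and 2 on Day 3, 0, 0 and 3 on Day 7, and 0, 3 and 4 on Day 10. They were 8, 13 and 15 on Day 14, 5, 17 and 19 on Day 21 and 30, 38 and 56 on Day 28, against 0, 3 and 2 in the monolayer. The early days overlapped the monolayer, while every library of Days 14, 21 and 28 had more counts than any early or monolayer library. Relative to the monolayer the log2 fold change was 2.83 ± 0.92 on Day 14 (edgeR adjusted p = 0.00671), 2.91 ± 0.91 on Day 21 (0.00509 in the same test) and 4.86 ± 0.86 on Day 28 (6.99e-06). SLC17A1 passed the filter on low counts only through its late libraries, which favours such calls. With no filter the edgeR adjusted p was 0.00707 on Day 14, 0.00518 on Day 21 and 1.13e-06 on Day 28. In fits of the compared groups alone the filter removed SLC17A1 from the comparisons of Days 14 and 21 with the monolayer and of Day 14 with Day 10. With so few counts the ratio of summed counts per summed library size is given too, with its exact 95% counting interval. It was 29.5 (12.3 to 92.5) for Day 28 over the monolayer and 25.6 (11.4 to 71.0) for Day 28 over Day 3.

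Between spheroid days SLC17A1 varied by the edgeR F test over the 6 days (adjusted p = 5.36e-07) and was higher on Day 28 than on Day 3 by 4.66 ± 0.84 on the log2 scale (edgeR adjusted p = 1.37e-05). The filter on low counts, which SLC17A1 passed only through its late libraries, favours the calls of late over early days as well. With no filter these adjusted p were 3.48e-11 and 2.78e-06 in edgeR. The step of Day 14 over Day 10, where SLC17A2 had its largest, was 2.34 ± 0.87 (edgeR adjusted p = 0.0265), with a count ratio of 5.14 (2.25 to 13.7). That call was lost without Day 10 replicate 1 (edgeR adjusted p = 0.105) or 2 (0.0650) and without Day 14 replicate 2 (0.0645) or 3 (0.0811). Day 28 over Day 21 was 1.95 ± 0.66 (edgeR adjusted p = 0.0283), with a ratio of 3.82 (2.67 to 5.58). It was lost without Day 21 replicate 1 (edgeR adjusted p = 0.157) or 2 (0.0670), without Day 28 replicate 1 (0.0507) or 3 (0.140), and with no filter on low counts (0.0586). SLC17A1 counts amounted to 0.617% of the SLC17A2 counts on Day 3, 0.133% on Day 7, 0.486% on Day 10, 0.421% on Day 14, 0.219% on Day 21 and 0.450% on Day 28, against 0.0938% in the monolayer. Whether the oligos of SLC17A1 take up any SLC17A2 RNA was not tested.

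SLC17A3, an efflux carrier of urate and drugs in the kidney tubule, and SLC17A4, an intestinal carrier of organic anions and thyroid hormone, were at the limit of detection. SLC17A3 had 39 counts over all libraries, found in 10 of 21, with group sums of 0 on Day 3, 5 on Day 7, 6 on Day 10, 10 on Day 14, 8 on Day 21 and 7 on Day 28, against 3 in the monolayer. No library held more than 7. Day 28 was the only group in which all 3 libraries had a count, at 2, 4 and 1. SLC17A4 had 9 counts in 3 libraries, 2 in 1 Day 3 library, 4 in 1 Day 10 library and 3 in 1 Day 21 library, and 0 in the other 18. SLC17A3 stood at 0.0388 to 0.117 CPM in the Day 28 libraries and at 0 in those of Day 3, and its libraries overlapped in every other comparison made. Both genes were removed by the filter on low counts, so no difference of either was tested.

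SLC17A5, the lysosomal sialic acid exporter, was lower than the monolayer from Day 10 on, at most 1.40-fold. It stood at 201.1, 203.6 and 195.0 CPM on Day 3, 202.9, 201.5 and 187.8 CPM on Day 7, and 145.8, 147.3 and 169.5 CPM on Day 10. The later libraries had 145.3, 144.0 and 161.1 CPM on Day 14, 169.3, 169.5 and 189.5 CPM on Day 21 and 154.5, 163.4 and 169.4 CPM on Day 28, against 211, 205.9 and 211.8 CPM in the monolayer. Every spheroid library lay below every monolayer library, though on Days 3 and 7 by a margin that did not pass the test. The log2 fold change from the monolayer was -0.07 ± 0.07 on Day 3 (edgeR adjusted p = 0.343) and -0.09 ± 0.07 on Day 7 (0.226). It was -0.44 ± 0.07 on Day 10 (edgeR adjusted p = 2.80e-07), -0.48 ± 0.07 on Day 14 (6.76e-08), -0.25 ± 0.07 on Day 21 (9.37e-04) and -0.37 ± 0.07 on Day 28 (8.16e-06). In CPM the order was Day 14 (150.1 ± 9.56), Day 10 (154.2 ± 13.3), Day 28 (162.5 ± 7.50), Day 21 (176.1 ± 11.6), Day 7 (197.4 ± 8.37), Day 3 (199.9 ± 4.44) and 2D (209.5 ± 3.20), and each group overlapped the next but for Day 3 and the monolayer.

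Between spheroid days the fall of SLC17A5 came on Day 10, which stood below Day 7 by -0.36 ± 0.07 on the log2 scale (edgeR adjusted p = 1.00e-04) with no overlap. Day 21 was higher than Day 14 by 0.23 ± 0.07 (edgeR adjusted p = 0.00806), a call lost without Day 14 replicate 2 (0.0649) or Day 21 replicate 3 (0.0545). Over the whole course Day 28 was lower than Day 3 by -0.30 ± 0.07 (edgeR adjusted p = 2.07e-04). The F test over the 6 days gave an adjusted p of 4.72e-07 in edgeR. The comparison with the monolayer depends on the scaling, because scaling by library size alone raised the median log2 fold change of all genes against the monolayer by 0.136 to 0.216. With that scaling the fall of SLC17A5 was -0.09 on Day 21 (edgeR adjusted p = 0.236) and -0.15 on Day 28 (0.0616), no longer called, and the calls on Days 10 and 14 stayed.

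SLC17A9, the vesicular ATP carrier, was the second member that lay below the monolayer early and above it late, within a much narrower range than SLC17A2. Its levels were 5.32, 4.29 and 5.21 CPM on Day 3, 5.39, 3.85 and 5.85 CPM on Day 7, and 6.83, 4.65 and 5.42 CPM on Day 10. They were 4.19, 5.87 and 7.04 CPM on Day 14, 9.96, 8.55 and 10.5 CPM on Day 21 and 10.8, 10.2 and 13.7 CPM on Day 28, against 6.06, 8.17 and 8.33 CPM in the monolayer. Days 3 and 7 lay wholly below the monolayer, Days 10 and 14 overlapped it, and Days 21 and 28 lay wholly above it. Against the monolayer the log2 fold change was -0.61 ± 0.19 on Day 3 (edgeR adjusted p = 0.00464), -0.59 ± 0.19 on Day 7 (0.00573) and -0.43 ± 0.19 on Day 10 (0.0387). It was -0.41 ± 0.19 on Day 14 (edgeR adjusted p = 0.0516), 0.35 ± 0.18 on Day 21 (0.0826) and 0.62 ± 0.19 on Day 28 (0.00365). In order the groups were Day 3 (4.94 ± 0.565), Day 7 (5.03 ± 1.05), Day 10 (5.63 ± 1.10), Day 14 (5.70 ± 1.43), 2D (7.52 ± 1.27), Day 21 (9.66 ± 0.997) and Day 28 (11.6 ± 1.90) in CPM, and each group overlapped the next but for the monolayer and Day 21.

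Between spheroid days SLC17A9 rose late. Day 21 was higher than Day 14 by 0.76 ± 0.19 on the log2 scale (edgeR adjusted p = 0.00235), with no overlap, and Day 28 was higher than Day 3 by 1.23 ± 0.19 (1.33e-06), also with no overlap. The F test over the 6 days gave an edgeR adjusted p of 1.47e-07. With library size alone the early calls against the monolayer were lost, at -0.40 for Day 3 (edgeR adjusted p = 0.0711), -0.42 for Day 7 (0.0520) and -0.30 for Day 10 (0.172), and Day 21 was called at 0.51 (0.0187). The Day 7 call was also lost without Day 7 replicate 2 (edgeR adjusted p = 0.0606), and that on Day 10 without monolayer replicate 2 (0.132) or 3 (0.144) or Day 10 replicate 2 (0.206) or 3 (0.0724).

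**Figure D2:**
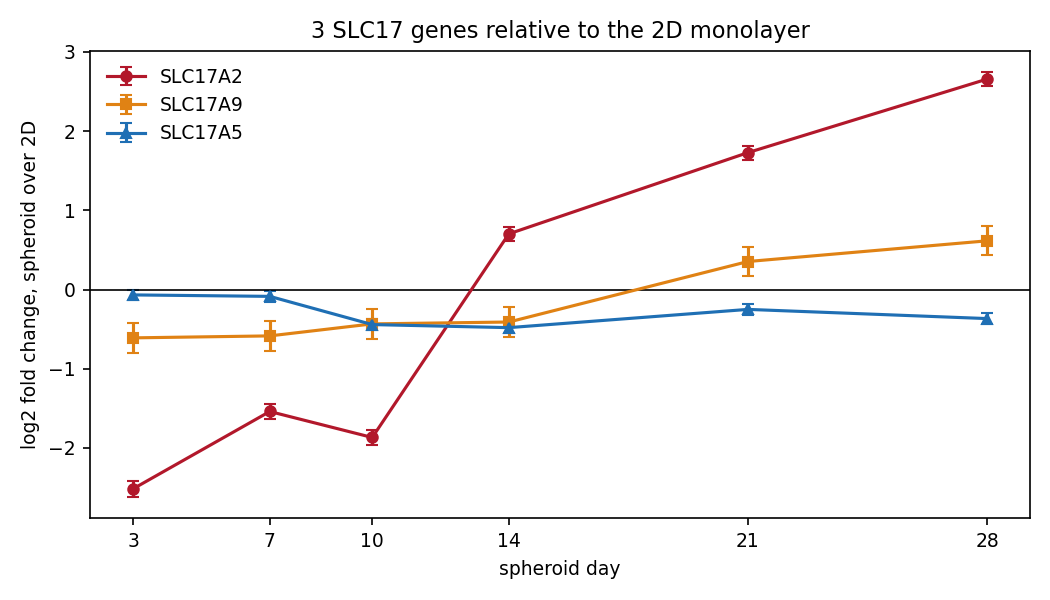
Log2 fold change of each spheroid day over the 2D monolayer (vertical axis) against day of culture (horizontal axis) for SLC17A2, SLC17A9 and SLC17A5; points are edgeR estimates and bars ± SE from 3 libraries a group. SLC17A2 runs between -2.52 on Day 3 and 2.66 on Day 28, SLC17A9 between -0.61 and 0.62, and SLC17A5 stays between -0.48 and -0.07.

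Calls are counted over SLC17A5 and SLC17A9 alone, since SLC17A2 had no test and SLC17A1 passed the filter on low counts only through its late days. On Day 3, 1 of the 2 was lower than the monolayer, where 40.1% of all 12345 genes tested were higher and 37.8% lower. On Day 7, 1 was lower (40.4% of all genes higher and 38.4% lower), on Day 10 both were lower (40.0% and 37.9%), and on Day 14 (38.7% and 35.7%) and Day 21 (39.3% and 35.1%) 1 was lower. On Day 28, 1 was higher and 1 lower (38.5% and 34.8%). Most genes differed between spheroids and monolayer, and nothing is read from these counts. Between days, neither was called for Day 7 over Day 3 (10.6% of all genes higher and 8.76% lower), for Day 14 over Day 10 (24.0% and 24.3%) or for Day 28 over Day 21 (10.0% and 14.0%). SLC17A5 was lower for Day 10 over Day 7 (13.9% and 13.5%), and both were higher for Day 21 over Day 14 (13.9% and 12.7%). For Day 28 over Day 3, SLC17A9 was higher and SLC17A5 lower, where 29.5% of all genes were higher and 30.2% lower. Both passed the F test of any change among spheroid days, as did 76.2% of all genes.

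Of the genes beside the cluster, 0 of 10 were called higher on Day 28 than on Day 3, though RIPOR2, without counts in spheroids, could not be called. The 5 nearest measured protein-coding genes on each side were H2BC1, H2AC1, SCGN, CARMIL1 and RIPOR2 before SLC17A4 and TRIM38, H1-1, H3C1, H4C1 and H4C2 after SLC17A2. In that comparison 7 of the 10 were lower, against 29.5% of all genes higher and 30.2% lower. For Day 14 over Day 10, 1 was higher and 3 lower, against 24.0% and 24.3% of all genes. Against the monolayer, 8 were higher and 2 lower on Day 3 (40.1% and 37.8% of all genes), and 2 were higher and 4 lower on Day 28 (38.5% and 34.8%). H2BC1 and H2AC1 passed the filter on low counts through early spheroid days. That favours calling them higher on Day 3 and lower for Day 28 over Day 3. RIPOR2 passed it through the monolayer alone, which favours calling it lower than the monolayer. H1-1 and H3C1, at means of 0.0782 and 0.0193 CPM in the monolayer, passed the filter only through spheroid libraries. That favours calling them higher than the monolayer. Nothing is read from these counts of neighbours. CARMIL1, an actin capping regulator, was lower on Day 28 than on Day 3 by -1.86 ± 0.16 on the log2 scale (edgeR adjusted p = 1.37e-11), with 4.04 ± 0.849 CPM on Day 28 and 14.6 ± 1.77 CPM on Day 3. SCGN, a calcium-binding protein, was lower by -0.83 ± 0.18 (edgeR adjusted p = 1.30e-04), with 4.13 ± 0.788 CPM on Day 28 and 7.27 ± 0.250 CPM on Day 3.

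TRIM38, a ubiquitin ligase of innate immune signalling and the gene next to SLC17A2, was level across spheroid days at group means of 4.56 to 5.99 CPM, against 20.4 ± 0.388 CPM in the monolayer. It was lower than the monolayer by -2.11 ± 0.15 on Day 3 (edgeR adjusted p = 3.25e-14) and by -1.99 ± 0.16 on Day 28 (2.46e-13). The replication-dependent histone genes H4C1 and H4C2 were lower on Day 28 than on Day 3 by -2.90 ± 0.30 (edgeR adjusted p = 6.69e-07) and -2.12 ± 0.21 (3.89e-07). Histone genes have near-identical copies that can share counts, so single values are uncertain. H2BC1 had 128 counts and H2AC1 154 over all libraries. RIPOR2 had 93 counts, all of them in the monolayer.

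**Figure D3:**
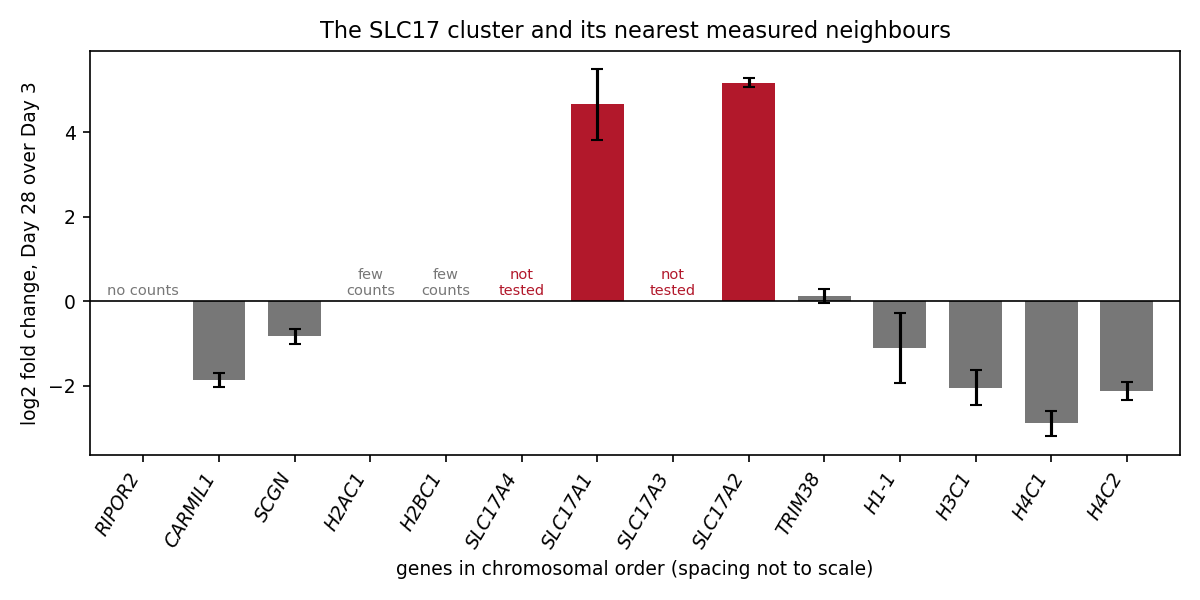
Log2 fold change of Day 28 over Day 3 (vertical axis, edgeR estimate ± SE from 3 libraries a group) for the 4 clustered SLC17 genes (red) and the 5 nearest measured protein-coding genes on each side (grey), in chromosomal order with spacing not to scale. SLC17A2 stands at 5.17 and SLC17A1 at 4.66, while CARMIL1 is at -1.86 and H4C1 at -2.90; RIPOR2 had no counts in spheroids, H2AC1 and H2BC1 too few on Day 28 to draw, and SLC17A3 and SLC17A4 were not tested.

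The patterns most like each member were found among the 10592 tested genes that averaged 1 CPM or more, by the root mean square difference of log2 CPM over 21 libraries after centring each gene on its own mean. Nearest to SLC17A2 were DYSF, a membrane repair protein, at 0.637, MYCL, a transcription factor of the MYC family, at 0.646, and TAT, the liver enzyme of tyrosine breakdown, at 0.696, where the median gene was at 1.85. TAT averaged 27.6 ± 1.23 CPM on Day 3, 268 ± 29.4 CPM on Day 14 and 374 ± 64.2 CPM on Day 28, against 110.0 ± 1.14 CPM in the monolayer. MYCL averaged 1.05 ± 0.433 CPM on Day 3 and 12.04 ± 0.572 CPM on Day 28, against 5.47 ± 0.505 CPM in the monolayer. DYSF averaged 0.502 ± 0.222 CPM on Day 3 and 15.8 ± 6.96 CPM on Day 28, against 1.64 ± 0.250 CPM in the monolayer. The 3 were picked for their likeness to SLC17A2 over these libraries, so their course is a description.

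Nearest to SLC17A5 were TLK1 at 0.0941, WWP2 at 0.0961 and RFC1 at 0.0973, with a median gene at 0.477. Nearest to SLC17A9 were SLC35B1 at 0.244, DNAJC7 at 0.252 and ANKHD1-EIF4EBP3 at 0.259, with a median gene at 0.655. SLC35B1, a nucleotide carrier of the endoplasmic reticulum, averaged 70.8 ± 1.02 CPM on Day 14 and 129 ± 3.45 CPM on Day 21, against 116 ± 7.71 CPM in the monolayer. The distances are small where a member varies little, so they do not compare one member with another. SLC17A1, with a mean of 0.378 CPM, was too low for this measure.

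**Figure D4:**
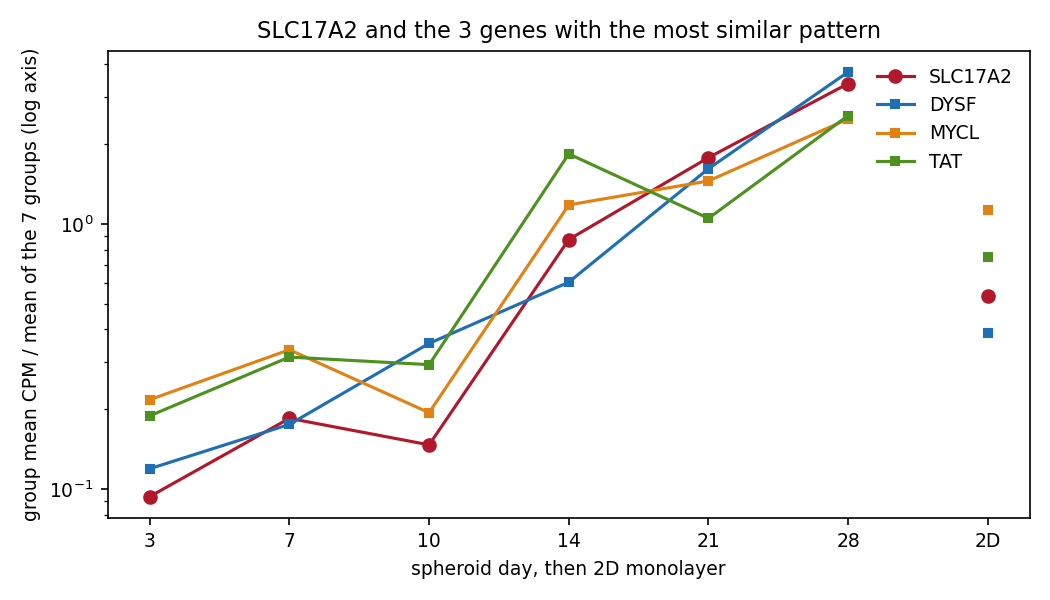
Group mean level of SLC17A2, DYSF, MYCL and TAT by spheroid day, with the 2D monolayer at the right, each divided by the mean of its 7 group means (vertical axis, log scale; 3 libraries a group). All 4 are lowest on Day 3 or Day 10 and highest on Day 28, and TAT departs from SLC17A2 on Day 21, with 153 CPM between 268 CPM on Day 14 and 374 CPM on Day 28.

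HNF4 proteins are transcription factors of hepatocytes and kidney tubule cells. HNF4A was higher than the monolayer by 1.34 ± 0.11 on the log2 scale on Day 3 (edgeR adjusted p = 1.25e-12) and 1.81 ± 0.11 on Day 28 (8.81e-16), and higher on Day 28 than on Day 3 by 0.47 ± 0.11 (2.82e-04).

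HNF4A and HNF4G were both higher on Day 14 than on Day 10, the step at which SLC17A2 differed most. For HNF4A this was 0.28 ± 0.11 on the log2 scale (edgeR adjusted p = 0.0279), a call lost without Day 10 replicate 1 (0.0709) or 3 (0.144) or Day 14 replicate 2 (0.177). HNF4G averaged 87.5 ± 1.05 CPM on Day 3, 80.8 ± 0.966 CPM on Day 10, 118 ± 4.25 CPM on Day 14 and 120 ± 6.74 CPM on Day 28, against 138 ± 1.66 CPM in the monolayer. Day 14 exceeded Day 10 by 0.54 ± 0.06 on the log2 scale (edgeR adjusted p = 1.52e-09) and Day 28 exceeded Day 3 by 0.45 ± 0.06 (3.34e-08). Relative to the monolayer it was lower by -0.66 ± 0.06 on Day 3 (edgeR adjusted p = 2.78e-12) and by -0.21 ± 0.06 on Day 28 (0.00181), and the second of these was 0.01 with library size alone (0.894).

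Of the other genes of urate transport, most of those tested were higher than the monolayer on Day 3 and again on Day 28, though some fell between these days. Of 15 genes listed, 8 were tested. On Day 3, 6 were higher and 1 lower than the monolayer with a median log2 fold change of 2.01, where 40.1% of all genes were higher and 37.8% lower with a median of 0.06. On Day 28, 6 were higher and 0 lower with a median of 2.11, where 38.5% of all genes were higher and 34.8% lower with a median of 0.08. For Day 28 over Day 3, 2 were higher and 3 lower, with a median of 0.04, where 29.5% of all genes were higher and 30.2% lower with a median of 0.0047. The 2 higher became 1 with library size alone and without Day 3 replicate 1 or Day 28 replicate 1 or 3. SLC22A7, an organic anion carrier of the hepatocyte, led the rise on Day 3 with 13.3 ± 1.88 CPM, against 0.454 ± 0.224 CPM in the monolayer (4.96 ± 0.39, edgeR adjusted p = 3.72e-10), and fell by 1.95 ± 0.30 on Day 28 relative to Day 3 (1.22e-05). SLC16A9, a carnitine carrier tied to urate levels, led on Day 28 with 11.1 ± 1.62 CPM, against 0.534 ± 0.0444 CPM in the monolayer (4.36 ± 0.21, edgeR adjusted p = 1.13e-18).

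SLC2A9, the main urate carrier of the hepatocyte, is named here after its values were seen. It stood at 107 ± 3.30 CPM on Day 3 and 102 ± 6.92 CPM on Day 28, against 18.9 ± 0.763 CPM in the monolayer, a log2 fold change of 2.50 ± 0.07 (edgeR adjusted p = 3.25e-25) and 2.44 ± 0.07 (1.38e-24). Day 28 over Day 3 gave -0.06 ± 0.06, which did not pass (edgeR adjusted p = 0.404). SLC22A11, a urate exchanger of kidney and placenta, was the list gene that fell on Day 3 and the one with the largest rise afterwards. It was lower than the monolayer by -2.83 ± 0.76 on Day 3 (edgeR adjusted p = 0.00123) and higher on Day 28 than on Day 3 by 3.63 ± 0.74 (7.59e-05), at 0.672 ± 0.293 CPM on Day 28 and 0.0482 ± 0.0228 CPM on Day 3. SLC22A11 had 246 counts over all libraries. Its Day 3 level lies below the 0.0746 to 0.106 CPM that 3 counts make in those libraries, so both differences rest on a value at the limit of detection. SLC2A12, SLC22A8, SLC22A13 and SLC5A8 had 0 counts in all libraries.

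The counts of the lists that follow stand beside the same shares of all genes: 40.1% higher and 37.8% lower on Day 3, 38.5% and 34.8% on Day 28, and 29.5% and 30.2% for Day 28 over Day 3. Of 15 genes of purine breakdown 11 were tested. On Day 3, 3 were higher and 7 lower than the monolayer (median -0.35), on Day 28, 1 was higher and 5 lower (median -0.21), and for Day 28 over Day 3, 5 were higher and 4 lower (median 0.51). The 1 higher on Day 28 became 2 with library size alone, with no filter, and without monolayer replicate 3 or Day 28 replicate 2 or 3. The 4 lower for Day 28 over Day 3 became 2 without Day 3 replicate 1. XDH, the enzyme that forms urate, had 0 counts in every library, as had NT5C1B. NT5E, which releases adenosine from AMP at the cell surface, was higher by 1.64 ± 0.11 on Day 3 (edgeR adjusted p = 2.75e-14) and 2.21 ± 0.11 on Day 28 (3.50e-17) than in the monolayer. AMPD3, an AMP deaminase, was lower by -3.80 ± 0.53 (edgeR adjusted p = 8.44e-08) and -4.16 ± 0.56 (5.39e-08) at the same days. AMPD3 had 517 counts over all libraries and 3.87 ± 1.08 CPM in the monolayer. Its 0.272 ± 0.15 CPM on Day 3 and 0.204 ± 0.0864 CPM on Day 28 lie near the limit of detection, so the size of these falls is uncertain. For Day 28 over Day 3, MOCOS, which activates the molybdenum cofactor of XDH, was higher by 1.64 ± 0.14 (edgeR adjusted p = 8.94e-12), and ADA, adenosine deaminase, was lower by -1.23 ± 0.42 (0.0114, and 0.0611 without Day 3 replicate 1).

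Phosphate carriers and their regulators, 11 tested of 13, were called in both directions: 4 were higher and 7 lower than the monolayer on Day 3 (median -0.54), 4 and 6 on Day 28 (median -0.50), and 1 and 5 for Day 28 over Day 3 (median -0.22). SLC25A23, a mitochondrial ATP and phosphate exchanger, was higher by 3.45 ± 0.09 on Day 3 (edgeR adjusted p = 1.24e-25) and 2.35 ± 0.09 on Day 28 (5.04e-21), with a fall of -1.10 ± 0.08 for Day 28 over Day 3 (3.25e-13). Its relative SLC25A25 was lower by -2.41 ± 0.08 on Day 3 (edgeR adjusted p = 1.40e-23). SLC20A1, a sodium-coupled phosphate importer of most cells, was at 133 ± 13.4 CPM on Day 28, against 704 ± 73.3 CPM in the monolayer (-2.40 ± 0.08, edgeR adjusted p = 2.14e-22). ENPP1, which makes pyrophosphate outside the cell, was higher on Day 28 than on Day 3 by 0.52 ± 0.16 (edgeR adjusted p = 0.00503).

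Around SLC17A5, 8 of 9 analysed genes of sialic acid handling were tested. On Day 3, 2 were higher and 2 lower than the monolayer (median 0.07), on Day 28, 2 and 3 (median 0.03), and for Day 28 over Day 3, 2 and 4 (median -0.25). With library size alone 5 were higher and 1 lower on Day 3. The 2 higher became 1 on Day 28 without Day 28 replicate 1, and for Day 28 over Day 3 without Day 3 replicate 1 or 3 or Day 28 replicate 2. CTSA, the lysosomal protease that protects sialidase, was at 696 ± 16.5 CPM on Day 3, against 309 ± 15.9 CPM in the monolayer (1.17 ± 0.08, edgeR adjusted p = 1.41e-15). NEU1, the lysosomal sialidase, was at 104 ± 9.43 CPM on Day 28, against 205 ± 6.60 CPM in the monolayer (-0.99 ± 0.08, edgeR adjusted p = 2.14e-13), and lower than on Day 3 by -1.06 ± 0.08 (1.11e-13). NANS, the sialic acid synthase, was lower than the monolayer by -1.14 ± 0.07 on Day 3 (edgeR adjusted p = 2.29e-16) and higher on Day 28 than on Day 3 by 0.83 ± 0.07 (2.69e-12). SLC35A1, the Golgi carrier of CMP-sialic acid, was higher than the monolayer by 0.92 ± 0.22 on Day 28 (edgeR adjusted p = 3.06e-04).

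Around SLC17A9, 12 of 16 genes of nucleotide release and purinergic signalling were tested. Against the monolayer 7 were higher and 2 lower on Day 3 (median 0.85) and 5 and 4 on Day 28 (median 0.38), and for Day 28 over Day 3, 2 were higher and 6 lower (median -0.32). The 4 lower on Day 28 became 2 with library size alone and without monolayer replicate 2 or 3. P2RY6, among the 7 higher on Day 3, was at 0.0782 ± 0.0439 CPM in the monolayer. It passed the filter on low counts only through spheroid libraries, which favours a higher call. ABCC6, a transporter needed for ATP release from hepatocytes, was at 131 ± 3.90 CPM on Day 3 and 78.1 ± 6.01 CPM on Day 28, against 13.9 ± 0.513 CPM in the monolayer. Its log2 fold change was 3.24 ± 0.09 on Day 3 (edgeR adjusted p = 9.56e-26) and 2.49 ± 0.09 on Day 28 (1.46e-22). PANX1, a channel that releases ATP, was lower by -1.07 ± 0.07 on Day 3 (edgeR adjusted p = 3.96e-16) and -1.18 ± 0.07 on Day 28 (6.47e-17). For Day 28 over Day 3, the ATP receptor P2RY11 was higher by 1.35 ± 0.20 (edgeR adjusted p = 8.05e-07) and ENTPD8, an enzyme that breaks down extracellular nucleotides, was lower by -1.68 ± 0.33 (4.83e-05). P2RY1 and ENTPD3 had 0 counts in all libraries.

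**Figure D5:**
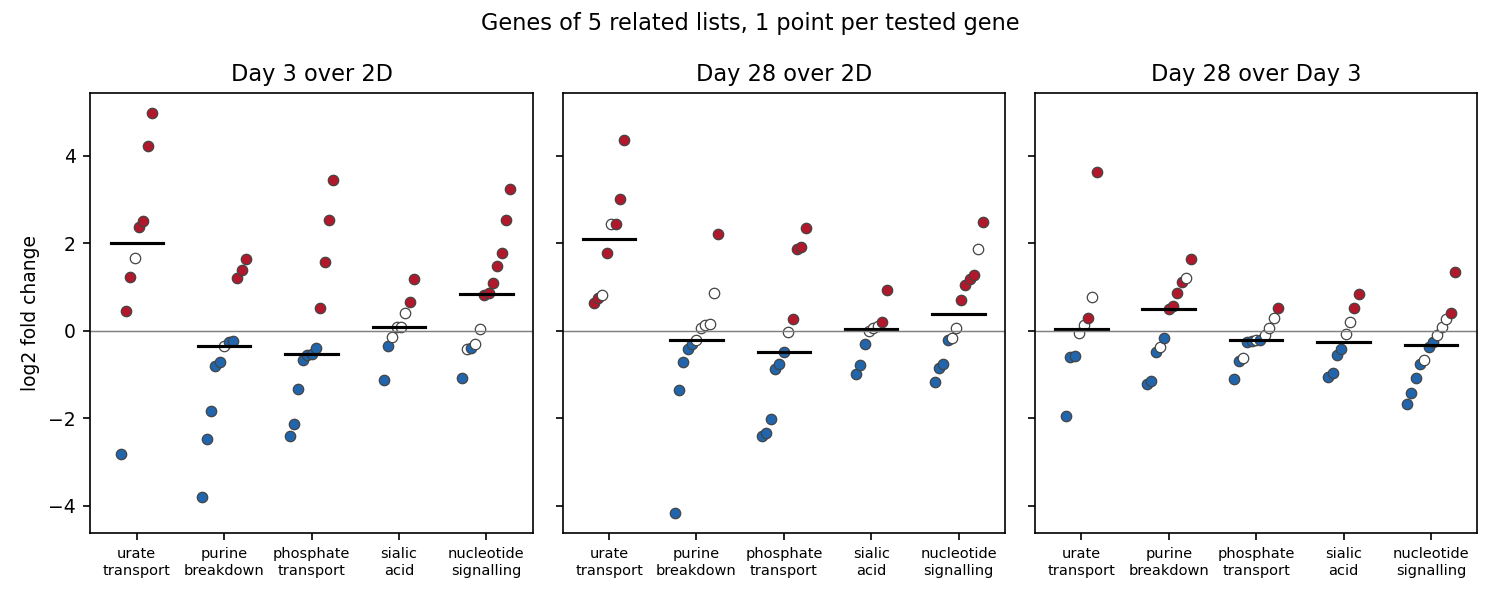
Log2 fold changes (vertical axis) of the tested genes of 5 lists, 1 point per gene, for Day 3 over the 2D monolayer, Day 28 over the monolayer and Day 28 over Day 3; red points were called higher, blue points called lower (edgeR), white points did not pass, and black bars are list medians. The urate transport list has medians of 2.01 and 2.11 over the monolayer and 0.04 for Day 28 over Day 3.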

How the data were processed

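The 21 TempO-Seq libraries were made from 100 ng of total RNA each, per the labels' protocols. The unit is raw counts, 1 row for each gene symbol, as the authors deposited them. Per the submitters' processing notes the build was GRCh38.p13 and the tools were STAR 2.7.10b, fastp 0.23.2, bcl2fastq 2.20.422 and DESeq2 1.38.0, with no roles given. No source used here says how several oligos of a gene were combined, and closely related genes can share counts.

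Genes passing filterByExpr (minimum count 10) were kept, 12345 of 19683, and the 7338 removed held 0.0108% of counts. One edgeR 4.0.16 model (R 4.3.3) with TMM scaling and robust quasi-likelihood tests covered all libraries. Calls use a threshold of 0.05 on p adjusted by Benjamini-Hochberg over all genes tested. The SE is the absolute log2 fold change divided by the square root of F. Replicate pairs differed by more than sampling noise (chi-square per degree of freedom 5.68 to 29.7). DESeq2 1.42.0, other scalings, no filter, fewer groups, a replicate block and leaving out each library were the alternatives.

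Members, gene lists and rules for named genes were chosen with earlier results of these data known. The rule names the members, the largest called rise and fall of each list in 3 comparisons, list genes with 0 counts, the HNF4 genes, 5 genes on each side of the cluster, and the 3 genes most like a member. Some genes and motifs that the rules name are not reported here.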

Additional observations from a re-analysis of the deposited data

How the results depend on the processing

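SLC17A2 kept the direction of all 12 differences under RLE size factors, library size alone, no filter, DESeq2, fits of the compared groups alone and leaving out each library. With library size alone its log2 difference from the monolayer was -2.30 on Day 3, -1.37 on Day 7, -1.73 on Day 10, 0.90 on Day 14, 1.88 on Day 21 and 2.87 on Day 28, each shifted upward as the median of all genes was. That scaling also turned the uncalled SLC17A5 values of Day 3 and Day 7 to 0.149 (edgeR adjusted p = 0.0600) and 0.0811 (0.304), and HNF4G on Day 28 to 0.00905 (0.894). It moved the share of higher among called genes to 39.4% for Day 7 over Day 3, against 54.8% with TMM, and to 55.6% for Day 28 over Day 21, against 41.8%.

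Fitting only the compared groups called 3600 genes for Day 7 over Day 3 and 1865 for Day 28 over Day 21, against 2393 and 2964 in the fit of all groups. Leaving out 1 library gave 1547 (without Day 7 replicate 3) to 2086 genes for Day 7 over Day 3. The SLC17A9 value on Day 14 was called with RLE (edgeR adjusted p = 0.0414), no filter (0.0439), without monolayer replicate 1 (0.0162) or Day 14 replicate 3 (0.0155), and that on Day 21 with no filter (0.0358). Leaving out 1 library put the uncalled SLC2A9 value of Day 28 over Day 3 between -0.0995 and 0.00679. Of 552 values of genes outside the family recomputed under alternatives, 546 kept direction and side of the threshold. Of 456 counts over gene lists and neighbours 23 moved by over 1.5 times, and the 3 genes most like each member were the same with a prior count of 0.5. Depth limits SLC17A1, SLC17A3 and SLC17A4.

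Replicate numbers did not pair the libraries: over 63 same-numbered pairs of different groups the correlation of deviations from the group means was -0.0599 to 0.0991, with 0 pairs over 0.1. With the replicate number as a block, the SLC17A9 value on Day 14 was called, at -0.42 (edgeR adjusted p = 0.0306).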

Other observations

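The 3 further SLC17 genes of the table encode the vesicular glutamate transporters of neurons. SLC17A6 had 3 counts, all in 1 monolayer library, and SLC17A7 had 8, of which 7 were in the monolayer. SLC17A8 had 217 counts, with a count in every library. Its group means were 0.183 ± 0.166 CPM on Day 3, 0.631 ± 0.174 CPM on Day 7, 0.218 ± 0.0817 CPM on Day 10, 0.475 ± 0.199 CPM on Day 14, 0.216 ± 0.161 CPM on Day 21 and 0.394 ± 0.139 CPM on Day 28, against 0.0862 ± 0.0107 CPM in the monolayer (SD, n = 3). The monolayer libraries held 2, 3 and 3 counts, so SLC17A8 passed the filter on low counts only through spheroid libraries, which favours a higher call. Day 28 was higher than the monolayer by 2.15 ± 0.81 on the log2 scale (edgeR adjusted p = 0.0188), a call lost without monolayer replicate 2 (0.0583) or Day 28 replicate 1 (0.0511) or 2 (0.0611). In a fit of the compared groups alone the filter on low counts removed SLC17A8, so it was not tested there.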
